A study of Homo sapiens with 6 samples.

Results

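The genes described here are the core of the cellular oxygen-sensing pathway: the hypoxia-inducible factor (HIF) subunits HIF1A, EPAS1 and ARNT, the prolyl hydroxylases EGLN1, EGLN2 and EGLN3, and 4 HIF target genes outside glycolysis, NDRG1, ADM, CA9 and ANKRD37. They were taken by name, as the rows whose NCBI Gene ID carries one of these 10 symbols, out of 28395 gene IDs in the count files. All 10 were in the files, and 7 passed the filter on low counts. HCT116, the source of all libraries, is an established cell line from a human colorectal carcinoma. One group of 3 libraries was given the vehicle, 0.1% DMSO, and the other group of 3 was given 50 nM TR-107, a small-molecule agonist of the mitochondrial matrix protease ClpP, each for 24 h. All cultures were grown in the same serum-supplemented medium in an incubator at 5% CO2, and the labels name no hypoxic group. Polyadenylated RNA was sequenced, so the values are mRNA levels, and HIF protein was not measured.

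HIF is a transcription factor made of an oxygen-regulated alpha subunit, encoded by HIF1A or EPAS1, and a constitutive beta subunit, encoded by ARNT. With oxygen present, EGLN enzymes hydroxylate prolines of the alpha subunit, and the VHL ubiquitin ligase complex then marks it for destruction. These enzymes need oxygen, iron and 2-oxoglutarate, so the alpha subunit is governed largely at the level of protein stability, and HIF in turn raises the mRNA of targets such as EGLN3, CA9, ADM, NDRG1 and ANKRD37.

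HIF binds DNA at a short core, ACGTG or GCGTG, and the stretches before the starts of 4 genes are shown because they are feedback or target genes of HIF with this core in the printed window. Each is the 200 bases before the annotated start, 5′ to 3′ on the gene's strand, from RefSeq on GRCh38.p14, with the core or its reverse complement (CACGT or CACGC) in capitals. The windows are EGLN1 at chr1:231422288-231422487 (minus strand), ADM at chr11:10304873-10305072 (plus strand), CA9 at chr9:35673728-35673927 (plus strand) and ANKRD37 at chr4:185396641-185396840 (plus strand).
EGLN1: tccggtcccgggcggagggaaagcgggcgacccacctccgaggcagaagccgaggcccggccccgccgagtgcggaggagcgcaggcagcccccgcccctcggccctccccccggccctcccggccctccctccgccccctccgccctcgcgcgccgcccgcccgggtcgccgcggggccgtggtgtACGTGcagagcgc
ADM: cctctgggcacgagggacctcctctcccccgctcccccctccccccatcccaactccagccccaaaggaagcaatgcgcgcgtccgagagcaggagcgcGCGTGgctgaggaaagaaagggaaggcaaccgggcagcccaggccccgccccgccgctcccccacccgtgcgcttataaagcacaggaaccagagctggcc
CA9: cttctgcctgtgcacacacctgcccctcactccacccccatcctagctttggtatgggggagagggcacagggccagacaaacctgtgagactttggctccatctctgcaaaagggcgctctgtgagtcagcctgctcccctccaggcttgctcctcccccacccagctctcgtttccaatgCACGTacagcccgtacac
ANKRD37: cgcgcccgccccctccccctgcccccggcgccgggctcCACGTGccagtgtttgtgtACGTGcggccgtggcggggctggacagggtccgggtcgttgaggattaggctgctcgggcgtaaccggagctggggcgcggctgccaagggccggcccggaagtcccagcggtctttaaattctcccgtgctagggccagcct
In these windows the core began 13 bases before the start of EGLN1, 101 before that of ADM and 18 before that of CA9. ANKRD37 held it at 143 bases and at 162 bases before its start, the latter as CACGTG, which reads as the core on both strands and so gives matches that overlap. RefSeq promoters were found for 9 of the 10 genes, all but NDRG1. Of these, 7 held the core within 250 bases before at least 1 start, and ARNT and EGLN3 did not. The core is common: 43.2% of all 35116 RefSeq promoter windows of that length held it. This share counts windows and the 7 counts genes, and HIF1A and EGLN2 each also had a window without the core. A match describes the letters and is not evidence of binding.

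With TR-107, genes of this pathway went in different directions. NDRG1, a stress-responsive cytoplasmic protein, rose 6.17-fold, from 57.7 ± 3.77 to 355 ± 1.62 CPM (read counts per 1e+06 counts of the library after TMM scaling; SD, n = 3), while ADM, the vasodilator peptide adrenomedullin, fell from 34.9 ± 4.18 to 22.9 ± 3.15 CPM (SD, n = 3). The low-abundance hydroxylase EGLN3 also fell, from 5.00 ± 1.48 to 2.32 ± 0.902 CPM (SD, n = 3). EPAS1 and ARNT rose by less than 1.5-fold, EGLN1 fell by less than 1.5-fold, and HIF1A did not pass the test. Of the 7 tested genes, 3 were called higher and 3 lower by the quasi-likelihood test of edgeR, with a Benjamini-Hochberg adjusted p under 0.05. Of all 13767 genes tested, 57.8% were called, 29.2% higher and 28.6% lower. Whether the share called among these 7 genes differs from that was not tested. Its median log2 fold change was -0.10, against 0.01 over all tested genes. The same 6 called genes had groups that did not overlap, 3 higher and 3 lower in TR-107, which held for 62.4% of all tested genes (31.5% higher and 30.9% lower).

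**Figure D1:**
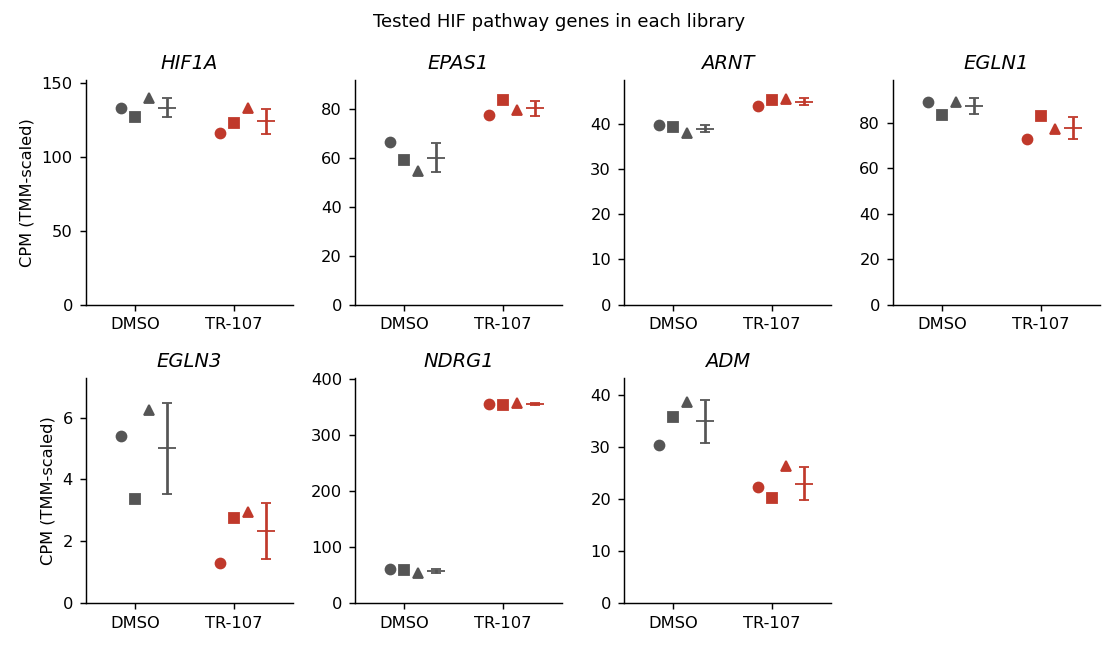
Level of each of the 7 tested genes in every library, in TMM-scaled CPM on linear axes that start at 0. Circles, squares and triangles are replicates 1, 2 and 3, and bars show the mean ± SD of 3 libraries. The TR-107 libraries of NDRG1 lie between 354 and 357 CPM against 53.4 to 60.5 in DMSO, and the groups of HIF1A overlap.

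Libraries held 17264039 to 23708135 gene counts and 16199 to 17069 genes with a count. The 3 libraries per group are named biological replicates, but nothing says whether they came from separate cultures, so a p-value reflects only the spread among them. In such bulk RNA, a change in the share of cells that make an mRNA and a change in mRNA per cell cannot be told apart. Of 9 epithelial markers, 7 were abundant enough to test, and their list summed to 5286 to 5338 CPM in DMSO and 5857 to 5971 in TR-107. Most of this sum came from the keratins KRT8, KRT18 and KRT19, and the tested markers did not move alike. CDH1, KRT18, KRT19 and CLDN4 were called higher, and EPCAM and KRT8 were not called. CDX2 was called lower, from 24.5 ± 4.22 to 17.7 ± 1.01 CPM (SD, n = 3; edgeR adjusted p = 0.000518). Of the 9 epithelial markers, KRT20 and VIL1, both of differentiated gut epithelium, were at or near 0. The list of 10 blood, stromal and vessel markers summed to 20.3 to 23.2 CPM in DMSO and 28.4 to 34.1 CPM in TR-107, with PTPRC, CD3E, COL3A1 and CDH5 at 0 in every library. Most of that sum came from COL1A1, at 14.3 ± 1.74 and 17.2 ± 1.01 CPM (SD, n = 3; edgeR adjusted p = 0.0660), and from CD68, a lysosomal protein of macrophages, which rose 2.11-fold from 5.57 ± 1.05 to 11.8 ± 2.06 CPM (SD, n = 3; edgeR adjusted p = 1.22e-06). COL1A1 was called higher without DMSO replicate 2 (0.36 on the log2 scale). The part of these markers in the results below was not tested.

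Among the HIF subunits, HIF1A was measured at 133, 127 and 140 CPM in the DMSO libraries (replicates 1 to 3, as below) and at 116, 123 and 133 in the TR-107 libraries. The highest TR-107 library lay within the DMSO range, so the groups overlapped. Its log2 fold change was -0.10 ± 0.05 (SE), and edgeR's adjusted p was 0.0977. It passed as lower with library size without scaling (-0.17, edgeR adjusted p = 0.004645), without DMSO replicate 2 (-0.14, 0.0278) and without TR-107 replicate 3 (-0.15, 0.0176). HIF1A (gene ID 3091) lies on GRCh38 chromosome 14, 61695513 to 61748258, and its antisense neighbours HIF1A-AS1 and HIF1A-AS2 had 1 and 2 counts in all libraries together.

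EPAS1 encodes HIF-2alpha, the other oxygen-regulated subunit, and lies on chromosome 2, 46297407 to 46386697 (gene ID 2034). It was at 66.3, 59.2 and 54.4 CPM in DMSO and at 77.5, 83.5 and 79.6 in TR-107. Every TR-107 library was above every DMSO library. The log2 fold change was 0.42 ± 0.07 (SE; edgeR adjusted p = 5.61e-07), a rise of 1.34-fold, and it stayed called when each library was left out in turn (0.35 to 0.49).

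The counts of EPAS1 relative to HIF1A within a library do not depend on scaling between libraries, and this ratio was chosen after the values were seen. It was 0.498, 0.465 and 0.388 in DMSO and 0.665, 0.678 and 0.597 in TR-107. The balance of the 2 alpha subunit mRNAs thus lay further toward EPAS1 in all 3 TR-107 libraries, by 0.53 on the log2 scale. A two-sided exact permutation test gave p = 0.1, below which groups of 3 and 3 cannot go, and 0.1 again after adjustment over the 2 ratios tested.

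ARNT, the shared beta subunit (chromosome 1, 150809713 to 150876599, gene ID 405), was at 39.6, 39.2 and 38.0 CPM in DMSO and at 44.1, 45.3 and 45.4 in TR-107. The groups did not overlap and each was tight. The log2 fold change was 0.21 ± 0.08 (SE; edgeR adjusted p = 0.0184), or 1.15-fold. The call was lost with library size without scaling (0.14, edgeR adjusted p = 0.106) and without DMSO replicate 3 (0.18, 0.0688).

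The prolyl hydroxylases moved unequally. EGLN1, also called PHD2 and the main hydroxylase of HIF-1alpha in most cells, was at 89.2, 83.5 and 89.2 CPM in DMSO and at 72.8, 82.8 and 77.2 in TR-107. The highest TR-107 library fell just short of the lowest DMSO library. The log2 fold change was -0.17 ± 0.06 (SE; edgeR adjusted p = 0.0138). This call was lost without TR-107 replicate 1 (-0.13, 0.0925). EGLN1 (gene ID 54583) lies on chromosome 1, 231363756 to 231422287.

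EGLN3, also called PHD3 and itself a well-known HIF target, had the lowest level of the tested genes, with raw counts of 101, 77 and 151 for DMSO against 22, 50 and 63 for TR-107. In CPM this was 5.40, 3.37 and 6.24 against 1.29, 2.74 and 2.94. The groups were separated only narrowly, between DMSO replicate 2 and TR-107 replicate 3. EGLN3 was 2.14-fold lower (log2 fold change -1.09 ± 0.29, SE; edgeR adjusted p = 0.00133). With 1 library left out at a time the value was -1.33 to -0.81. Only EGLN3 and NDRG1 among the 10 genes passed the threshold with a change of at least 2-fold, as 10.3% of all tested genes did. EGLN3 (gene ID 112399) lies on chromosome 14, 33924227 to 33951074.

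EGLN2, or PHD1, could not be assessed. Its counts were 0, 9 and 1 in DMSO and 8, 0 and 0 in TR-107. Its span on chromosome 19, 40799191 to 40808434 (gene ID 112398), lies wholly inside that of the readthrough gene RAB4B-EGLN2, which had 3 counts in all libraries together, and the upstream RAB4B had 0. How reads that fall in more than 1 gene were counted is not given in the sources used here, so these counts cannot be read as absence of EGLN2 mRNA.

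**Figure D2:**
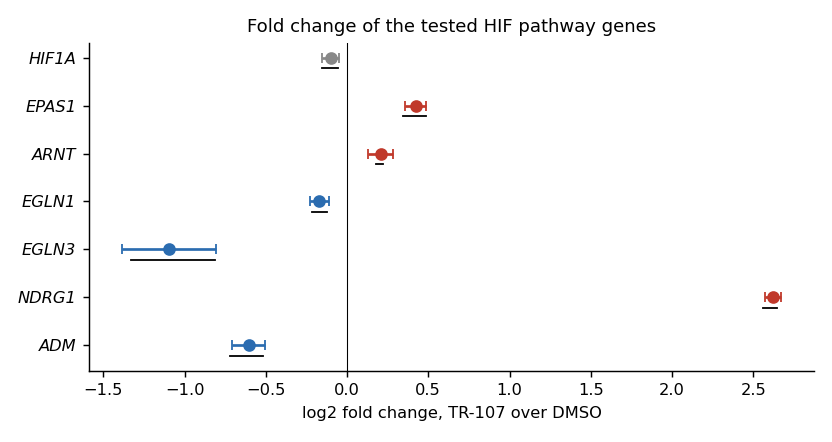
Log2 fold change of the 7 tested genes, TR-107 over DMSO, with bars of ± 1 SE, in red where called higher, blue where called lower and grey where not called. The black line under each point spans the values with each of the 6 libraries left out in turn. NDRG1 stands at 2.62, and no line crosses 0.

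The 4 target genes did not move together. NDRG1, N-myc downstream regulated gene 1 (gene ID 10397), was at 60.5, 59.2 and 53.4 CPM in DMSO and at 355, 354 and 357 in TR-107. The gap between the groups far exceeded the spread within either. The log2 fold change was 2.62 ± 0.05 (SE; edgeR adjusted p = 3.52e-36). It was 2.56 to 2.65 with each library left out. By fold change NDRG1 ranked 94 among the 13767 tested genes, counted from the highest.

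ADM (gene ID 133; chromosome 11, 10305073 to 10307397) went the other way. Its mRNA was at 30.3, 35.8 and 38.5 CPM in DMSO and at 22.4, 20.1 and 26.3 in TR-107, with no overlap. It was 1.52-fold lower (log2 fold change -0.60 ± 0.10, SE; edgeR adjusted p = 2.48e-06). The call held at -0.72 to -0.52 with each library left out.

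CA9, the cell-surface carbonic anhydrase widely used as a hypoxia marker, was barely detected. It had 1, 2 and 4 counts in DMSO and 0 in each TR-107 library, and 0 counts over the 3 TR-107 libraries allow up to 3 counts, or 0.0528 CPM (counting error only). It was therefore too low to test, and a difference was not detectable at this depth: without the filter edgeR's adjusted p was 0.161. CA9 (gene ID 768) lies on chromosome 9, 35673928 to 35681159. ANKRD37, an ankyrin repeat protein, had 9, 7 and 7 counts in the vehicle libraries against 7, 16 and 5 with TR-107, so the groups overlapped (edgeR adjusted p = 0.701 without the filter). Its span on chromosome 4, 185396841 to 185400723 (gene ID 353322), overlaps LRP2BP and UFSP2, and reads in the shared stretches may not have been assigned to it.

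Levels of different genes are comparable only per length, and CPM was therefore divided by the union of exons of each gene in GENCODE 29, which may differ from the annotation the authors counted on. In DMSO, HIF1A led with 31.4 ± 1.49 CPM per kb (SD, n = 3), followed by NDRG1 with 15.3 ± 1.00, ADM with 12.8 ± 1.54, EGLN1 with 12.3 ± 0.468, EPAS1 with 11.6 ± 1.16, ARNT with 7.88 ± 0.167 and EGLN3 with 1.03 ± 0.304. The libraries of ADM, EGLN1 and EPAS1 overlapped, so their order among themselves is not resolved. In TR-107, NDRG1 led with 94.5 ± 0.431 CPM per kb, above HIF1A with 29.2 ± 1.997 and EPAS1 with 15.5 ± 0.593. EGLN1 followed with 10.9 ± 0.706, then ARNT with 9.09 ± 0.155 and ADM with 8.44 ± 1.16, whose libraries overlapped. EGLN3, at 0.476 ± 0.185 CPM per kb in TR-107, was below 1 in each library of that group and overlapped ANKRD37 there. ANKRD37, CA9 and EGLN2 were below 1 CPM per kb in every library of both groups. Reads that EGLN2 and ANKRD37 share with overlapping genes may not have been counted, so their values may understate their mRNA.

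The genes with the most similar profile over the 6 libraries were found for 1 gene of each role, by the root mean square (RMS) difference of mean-centred log2 CPM. For NDRG1 they were PPP1R15A (RMS 0.0391), which encodes a regulatory subunit of the eIF2alpha phosphatase, BTG1 (0.0724), an antiproliferative factor, and STC2 (0.0730), a secreted glycoprotein. PPP1R15A went from 35.5 ± 1.61 to 224 ± 6.61 CPM (SD, n = 3) and BTG1 from 26.2 ± 0.732 to 170 ± 9.62 CPM. For HIF1A they included EXOC6, an exocyst subunit, and BRD3OS, with RMS differences of 0.0263 and 0.0282. For EGLN3 the likeness was looser, at 0.169 for KBTBD8, 0.203 for TRIM6 and 0.219 for TIMP3. In a design of 2 groups such likeness mostly reflects the size of the group difference.

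The machinery that acts on the HIF alpha subunits was examined as a list. Of 18 partners and regulators, 17 were tested. In TR-107, 7 of them rose and 5 fell, beside 29.2% higher and 28.6% lower of all tested genes, and the list's median was 0.08 on the log2 scale. VHL, which recognizes the hydroxylated alpha subunit, rose from 103, 105 and 103 CPM in DMSO to 171, 169 and 180 in TR-107, which was 1.67-fold (edgeR adjusted p = 3.44e-17). USP20, a deubiquitinase reported to act on HIF-1alpha, rose 1.74-fold, and P4HTM, a membrane-bound prolyl hydroxylase, rose 1.46-fold. SIAH1, a ubiquitin ligase that targets EGLN proteins, rose 1.68-fold.

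None of the other 4 listed subunits of the VHL ligase was called higher. ELOC, or elongin C, fell from 95.9 ± 3.72 to 81.8 ± 4.79 CPM (SD, n = 3), and RBX1, the RING subunit, had a log2 fold change of -0.27 (edgeR adjusted p = 0.00325). ELOB (-0.10, edgeR adjusted p = 0.102) and the scaffold CUL2 (-0.12, 0.119) did not pass, although both were called lower with library size without scaling (-0.17 and -0.19), and each without 1 library, TR-107 replicate 1 for ELOB (-0.15) and TR-107 replicate 3 for CUL2 (-0.21). HIF1AN, the asparaginyl hydroxylase FIH, was called lower with library size without scaling (-0.16) but not in the test as set, at 118 ± 3.18 and 111 ± 1.58 CPM (SD, n = 3; edgeR adjusted p = 0.120).

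The list also held chaperones and coactivators of HIF. HSP90AA1 and HSP90AB1, cytosolic chaperones whose clients include HIF-1alpha, fell from 5387 ± 202 to 2710 ± 42.2 CPM and from 6276 ± 157 to 3677 ± 39.8 CPM (SD, n = 3). CITED2, which competes with HIF for its coactivators, was 1.52-fold lower. The coactivators CREBBP (0.25, edgeR adjusted p = 1.94e-05) and EP300 (0.13, 0.0405) rose slightly on the log2 scale. EP300 lost its call in 7 of 13 alternative settings, among them DESeq2 (0.12, DESeq2 adjusted p = 0.118) and leaving out DMSO replicate 1 or 3 or TR-107 replicate 1 or 2. SIAH2, another ligase for EGLN proteins, rose (0.23, edgeR adjusted p = 0.00282), while the ARNT paralog ARNT2 (0.24, 0.273) and COMMD1 (0.08, 0.717) did not pass, and HIF3A, with at most 6 counts a library, was not tested. With library size without scaling, 8 genes of the list were called lower in place of 5.

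**Figure D3:**
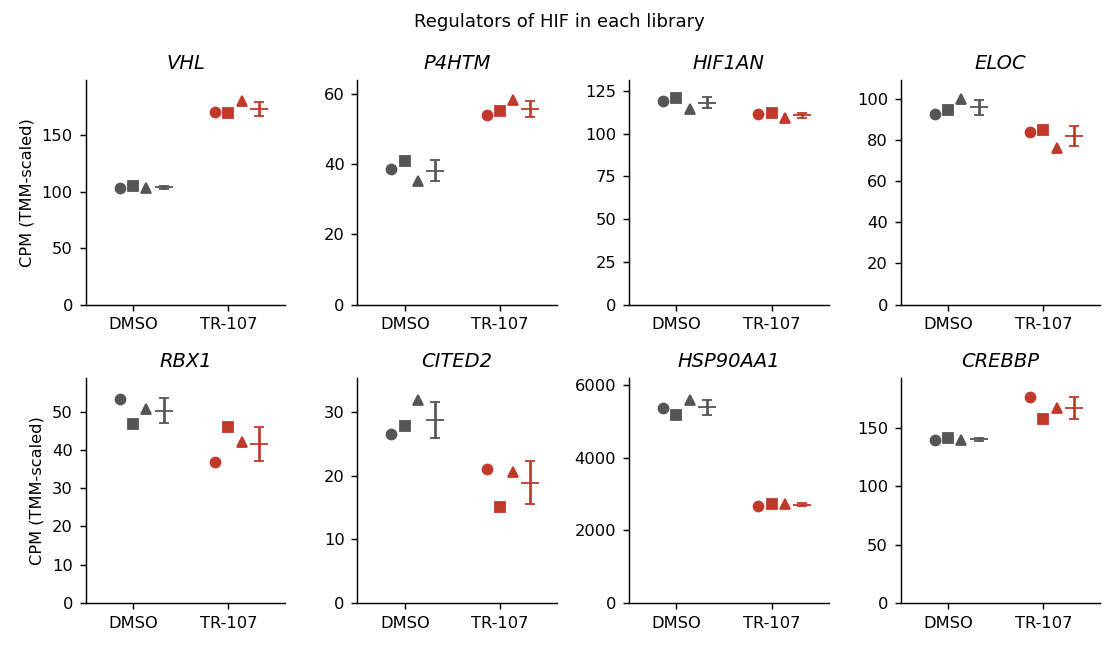
Level of 8 regulators of HIF in every library, in TMM-scaled CPM on linear axes that start at 0, with symbols for replicates 1 to 3 and bars of mean ± SD (n = 3). VHL and P4HTM lie higher in all TR-107 libraries and HSP90AA1 lies at 2662 to 2738 CPM against 5187 to 5591 in DMSO.

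A wider list of 36 hypoxia targets outside glycolysis was chosen with earlier results of these data known. Of the 30 that could be tested, 18 rose and 8 fell, beside 29.2% higher and 28.6% lower of all tested genes, and the median stood at 0.59 (log2). DDIT4, an inhibitor of mTORC1, rose 21.6-fold, STC2 6.01-fold and VEGFA, the angiogenic growth factor, 3.09-fold. VEGFA went from 50.9 ± 1.89 to 157 ± 3.90 CPM (SD, n = 3).

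Other members of that list fell. CA12, a membrane carbonic anhydrase like CA9, went from 4.79 ± 0.915 to 0.904 ± 0.177 CPM (SD, n = 3; edgeR adjusted p = 3.28e-08). PPFIA4 was 3.98-fold lower (log2 fold change -1.99 ± 0.43, SE) at low levels, from 2.69 ± 0.436 to 0.678 ± 0.316 CPM (SD, n = 3). It passed the low-count filter only because of its DMSO libraries, where it was higher, and stayed called in all 13 alternative settings. PLOD1, a collagen lysyl hydroxylase, was 1.51-fold lower, and BNIP3, a mitophagy receptor, had a log2 fold change of -0.37 ± 0.09 (SE). Its paralog BNIP3L, on the same list, was 2.01-fold higher. The count of genes called lower went from 8 to 5 without DMSO replicate 1, DMSO replicate 3 or TR-107 replicate 2. Of 20 glycolytic HIF targets, 3 were called higher and 13 lower, beside 29.2% and 28.6% of all tested genes, and their median was -0.24 (log2). PDK1, which restrains pyruvate dehydrogenase, had the highest fold change of the 20 (2.14-fold), and GAPDH and SLC2A1 rose less (0.23 and 0.25 on the log2 scale). LDHA (-1.14), PGAM1 (-1.01), TPI1 (-0.59) and GPI (-0.47) were lower.

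**Figure D4:**
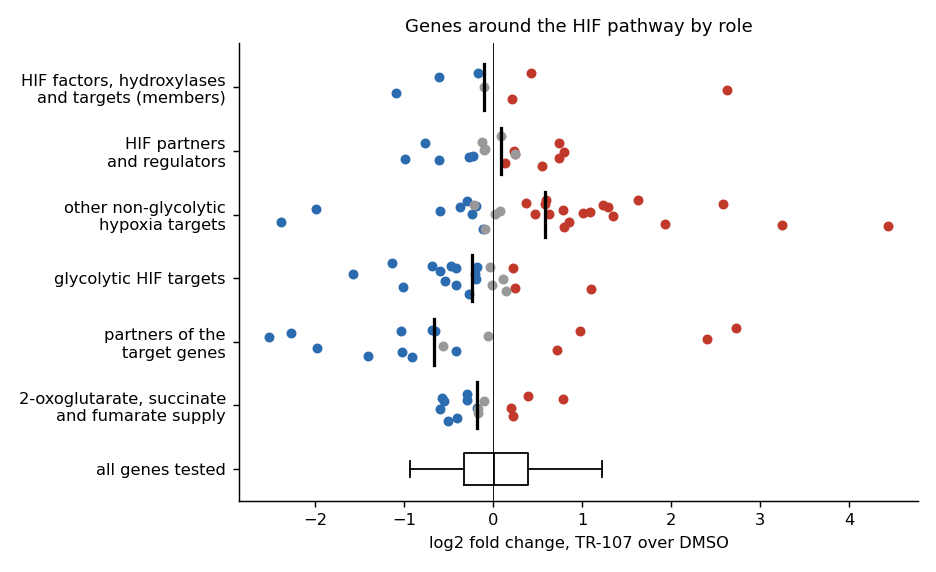
Log2 fold change, TR-107 over DMSO, of each tested gene in 6 lists, in red where called higher, blue where called lower and grey where not called, with a black bar at the list's median. The box shows the quartiles and median of all 13767 tested genes, with whiskers at the 5th and 95th percentiles. The other hypoxia targets have a median of 0.59 and the glycolytic ones of -0.24.

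Families and partners of the target genes were examined next. The 4 NDRG paralogs did not move alike. NDRG2 fell from 11.8, 13.5 and 9.30 CPM to 4.21, 4.27 and 4.57, NDRG3 from 55.8 ± 3.69 to 35.5 ± 2.37 CPM (SD, n = 3) and NDRG4 from 9.84 ± 1.72 to 4.85 ± 0.458 CPM (SD, n = 3), all with no overlap between groups. NDRG1 was thus the 1 paralog that rose. Of the kinases that phosphorylate NDRG1, SGK1 did not pass (3.05 ± 1.10 and 2.08 ± 0.716 CPM, SD, n = 3; edgeR adjusted p = 0.158). SGK3 was called lower (log2 fold change -1.98 ± 0.75, SE) from at most 23 counts a library, and lost that call with no filter and without DMSO replicate 3, TR-107 replicate 1 or TR-107 replicate 3. SGK3 passed the low-count filter only because of its DMSO libraries, where it was higher. The span of NDRG2 overlaps other counted genes, as does that of SGK3.

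ADM and its relative ADM2, or intermedin, went in opposite directions. ADM2 was at 3.58, 2.49 and 2.44 CPM in DMSO and at 23.3, 17.9 and 15.1 in TR-107, a 6.65-fold rise (edgeR adjusted p = 1.55e-16). Within a library the counts of ADM2 relative to ADM went from 0.0837 ± 0.0300 to 0.834 ± 0.237 (SD, n = 3; exact two-sided permutation p = 0.1, the smallest possible). This ratio, too, was chosen after the values were seen. ADM5 fell, with a log2 fold change of -1.04 ± 0.22 (SE).

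The receptor side of adrenomedullin signalling was sparse. CALCRL, the receptor core shared by ADM and ADM2, had 9, 9 and 11 counts in the vehicle libraries against 60, 32 and 40 with TR-107. It was called higher (log2 fold change 2.40 ± 0.50, SE; edgeR adjusted p = 6.92e-05). CALCRL passed the low-count filter only because of its TR-107 libraries, where it was higher. The call held in all 13 alternative settings, no filter among them. RAMP2 and RAMP3, the accessory proteins that turn CALCRL into adrenomedullin receptors, had 1 and 0 counts in all libraries together. The span of RAMP2 overlaps that of the counted gene RAMP2-AS1, so its count cannot be read as absence of RAMP2 mRNA. RAMP1, which forms the CGRP receptor with CALCRL, fell from 15.7 ± 1.39 to 8.34 ± 1.38 CPM (SD, n = 3). PAM, which amidates the peptide, was at 217 ± 8.30 and 209 ± 7.72 CPM (SD, n = 3; edgeR adjusted p = 0.314), and was called lower with library size without scaling (-0.12).

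**Figure D5:**
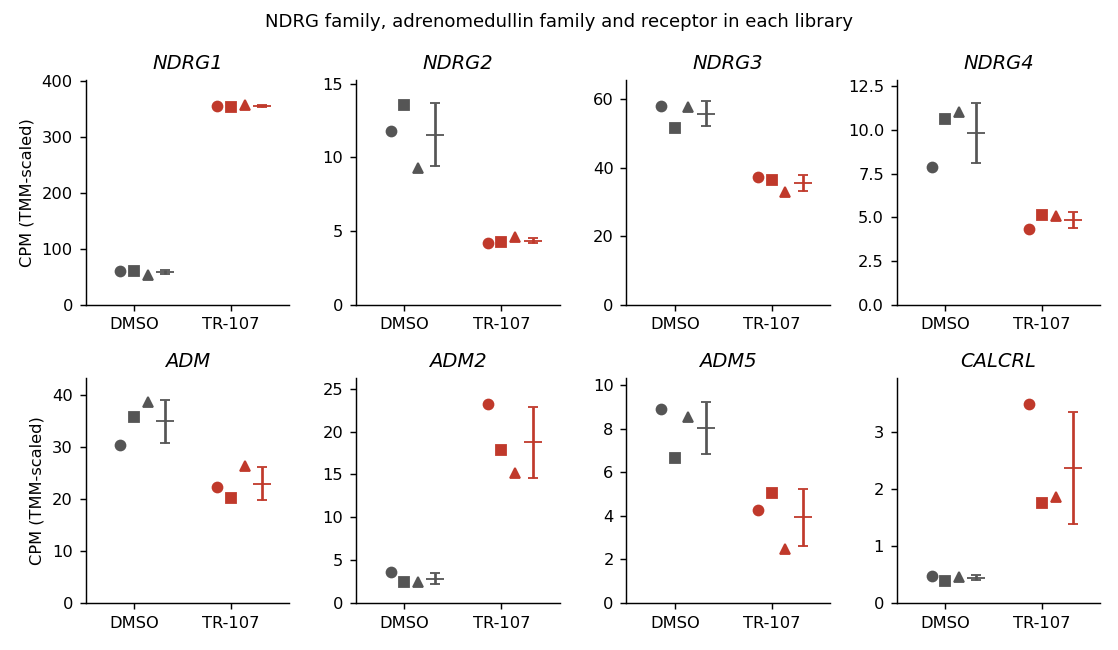
Level of the NDRG paralogs, the adrenomedullin family and the receptor CALCRL in every library, in TMM-scaled CPM on linear axes that start at 0, with symbols for replicates 1 to 3 and bars of mean ± SD (n = 3). NDRG1 and ADM2 lie higher and NDRG2, NDRG3, NDRG4, ADM and ADM5 lower in all TR-107 libraries.

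Other carbonic anhydrases and a bicarbonate carrier stood among the listed partners of CA9. CA2, a cytosolic carbonic anhydrase, fell from 43.2 ± 1.91 to 26.9 ± 0.723 CPM (SD, n = 3), and SLC4A7, a bicarbonate importer, had a log2 fold change of -0.41. CA13, another cytosolic carbonic anhydrase, rose from 12.9 ± 1.28 to 21.2 ± 1.55 CPM (SD, n = 3). At low levels, CA8 fell from 2.93 ± 0.0715 to 0.502 ± 0.163 CPM (SD, n = 3). CA14, with at most 21 counts a library and below 1 CPM in each, was called lower too (log2 fold change -2.27 ± 0.73, SE). CA8 and CA14 passed the low-count filter only because of their DMSO libraries, where they were higher. CA13 was thus the only listed carbonic anhydrase called higher. Of the 16 tested partners of the target genes, 4 rose and 10 fell, beside 29.2% higher and 28.6% lower of all tested genes (median -0.67 on the log2 scale). The partners called lower numbered 9 with no filter and 8 with at least 1 CPM in 3 libraries.

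The EGLN enzymes use 2-oxoglutarate and are inhibited by succinate and fumarate, so mRNAs for the enzymes that handle these metabolites were counted beside them. Of 15 such genes 4 rose and 8 fell, beside 29.2% higher and 28.6% lower of all tested genes, and the median was -0.18 on the log2 scale. IDH1, the cytosolic enzyme that makes 2-oxoglutarate, rose 1.72-fold, GLUD1, which makes it from glutamate, rose 1.31-fold and OGDH, which consumes it, rose 1.15-fold. SDHA, which oxidizes succinate, was 1.49-fold lower and FH, which consumes fumarate, was 1.46-fold lower. IDH3A (-0.60) and DLST (-0.41) also fell on the log2 scale. IDH2 (0.22, edgeR adjusted p = 0.0474) was the fourth called higher and lost its call in 9 of the 13 alternative settings, among them without any 1 DMSO library or TR-107 replicate 3. Metabolite levels were not measured.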

How the data were processed

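Per the labels' protocols, total RNA was isolated on columns and poly(A)-enriched libraries were read in pairs. The deposited values are raw read counts per NCBI Gene ID, which the authors made with HISAT2 per the file headers, and with featureCounts, FastQC, Trimmomatic and build hg38 per the submitters' processing notes. Not given in the sources used here: versions, annotation, strand and overlap settings.

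Counts were used as deposited. Symbols came from RefSeq (GRCh38.p14, the assembly of hg38), which matched 27745 of 28395 IDs. The main test was edgeR 4.0.16 (R 4.3.3) with TMM scaling, filterByExpr, a robust quasi-likelihood fit on the group and Benjamini-Hochberg adjustment over 13767 genes at 0.05. CPM used TMM-scaled library sizes, log2 CPM a prior count of 2, and SEs were derived from the quasi-F statistic. The test was run on simulated counts with the same dispersion for every gene and few changed genes. That setting is simpler than these data, so it does not check the calls here. Chi-square statistics of 3.92 to 6.05 per degree of freedom between replicates showed no duplicated library. The common biological coefficient of variation was 0.0739.

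The 10 genes, the lists and the rules were chosen with earlier results of these data known. Named besides the 10 were up to 4 called genes per direction and list with the smallest p, the SGK, NDRG and RAMP genes and the 3 profiles most alike to HIF1A, EGLN3 and NDRG1. Further list members were named after their values were seen. A few genes picked by these rules are not reported here. Of all 53 genes that the rules add, 16 overlap another counted gene. Alternatives were RLE or upper-quartile factors, no scaling, no filter, at least 1 CPM in 3 libraries, a replicate block, DESeq2 1.42.0 and leaving out each library.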

Additional observations from a re-analysis of the deposited data

How the results depend on the processing

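With library size without scaling, HIF1A was called lower (-0.17 on the log2 scale), ARNT lost its call (0.14), and 8 HIF partners and regulators were called lower in place of 5. That setting also moved the median of all tested genes from 0.01 to -0.05. Leaving out 1 library at a time gave log2 fold changes of -0.15 to -0.055 for HIF1A, 0.18 to 0.22 for ARNT and -0.22 to -0.13 for EGLN1, and 5 to 8 lower calls among the other hypoxia targets outside glycolysis. The cause was not tested. EPAS1, EGLN3, NDRG1 and ADM kept their direction and call in all 13 alternatives. With the replicate number as a block, 3976 genes were called higher and 3942 lower, against 4015 and 3941, and 3 of the 10 genes were higher and 3 lower, as without it. Deviations of same-numbered libraries correlated at -0.031, -0.018 and 0.049, within the -0.059 to 0.076 of differently numbered ones. No shared effect of the number was seen, but so few libraries cannot settle whether the samples were paired. Counts of at most 23 a library limit CA9, ANKRD37, EGLN2, CA14 and SGK3. COMMD1, which was not called (0.08), ranged from -0.052 without DMSO replicate 3 to 0.19 without TR-107 replicate 3.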
